A study of Mus musculus with 24 samples.

Results

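Egr1, Egr2, Egr3 and Egr4 make up the mouse family of early growth response genes, and their expression was followed in brain across 4 diets. Every probe set that the platform annotation gives to 1 of these genes and to no other gene was taken, which gave 6 of the 45101 probe sets on the array and 4 of the 18195 genes with a probe set of their own. Egr1 and Egr4 were each read by 1 probe set, and Egr2 and Egr3 by 2 each. No probe set was shared between a family member and another gene, and all 6 passed the filter on the mean level described with the processing.

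The mice were females of the strain NMR-1, 8 weeks old when the experiment began, and each group of 6 ate its diet freely for 2 weeks. The human diets were a fast food diet bought only at McDonald's and a cafeteria diet of cooked canteen meals. The chimpanzee diet was fruit, yogurt and vegetables, and the pellet group stayed on the pellets that all mice had been reared with. Every mouse was killed by cervical dislocation, and RNA of its right cerebral hemisphere was hybridised to 1 array, with 3 mice per diet in each of 2 labelled batches. The study asked whether expression differs among the diets, and it treated the cafeteria and fast food diets together as human diets. The hemisphere holds many cell types, and with bulk RNA fewer cells of a type and less RNA per cell cannot be told apart.

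The Egr proteins are transcription factors that bind GC-rich sites in DNA through zinc fingers. Their genes are immediate early genes, transcribed within minutes of a stimulus from messengers and factors already present in the cell, and in neurons synaptic activity is such a stimulus. The signal runs through ERK kinases to serum response factor, which binds the CArG box of a promoter together with Elk partners, and through CREB, which binds the cAMP response element (CRE). Nab1 and Nab2 are corepressors that bind Egr proteins and hold back transcription from their targets.

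The promoter windows of Egr2 and Egr4 are printed because both genes belong to 1 family, while their levels ran differently over the arrays. Each window covers 300 bases up to and around a start site, from RefSeq on GRCm38.p6, 5′ to 3′ on the strand of the gene. Capitals mark CArG boxes and CRE half-sites. The Egr2 window lies at chr10:67537619-67537918 on the plus strand and the Egr4 window at chr6:85513540-85513839 on the minus strand.
Egr2: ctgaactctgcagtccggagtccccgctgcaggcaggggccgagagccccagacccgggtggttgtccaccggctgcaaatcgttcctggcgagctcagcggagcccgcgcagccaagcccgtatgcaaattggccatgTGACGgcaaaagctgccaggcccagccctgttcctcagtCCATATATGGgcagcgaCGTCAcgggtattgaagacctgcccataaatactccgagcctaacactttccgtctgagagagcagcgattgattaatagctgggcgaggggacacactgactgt
Egr4: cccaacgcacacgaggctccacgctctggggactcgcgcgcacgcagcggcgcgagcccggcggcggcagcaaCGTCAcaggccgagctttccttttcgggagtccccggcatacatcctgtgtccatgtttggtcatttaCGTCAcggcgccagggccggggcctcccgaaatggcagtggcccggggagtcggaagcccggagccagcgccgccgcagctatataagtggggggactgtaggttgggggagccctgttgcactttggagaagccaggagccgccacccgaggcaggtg

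The Egr2 window held a CArG box at bases −72 to −63, counted from the start site with −1 as the base just before it. It also held CRE half-sites at −111 to −107 and at −55 to −51, none of them overlapping the CArG box. A further window of Egr2, at chr10:67537316-67537615, held another CArG box at −72 to −63 and no CRE half-site. The 2 windows that overlap the printed one held the same CArG box and CRE half-sites. Of these, the window at chr10:67537680-67537979 also held TATAA, on either strand, at −12 to −8 and −11 to −7. The remaining window of Egr2, at chr10:67535249-67535548, held no CArG box, CRE half-site or TATAA. In the Egr4 window no CArG box was found, and CRE half-sites lay at −177 to −173 and −109 to −105, with a TATAA at −27 to −23. Over all 32851 windows in the table, 1.63% held a CArG box, 20.8% a CRE half-site (TGACG on either strand), 24.9% a TATAA on either strand and 5.55% the Egr binding site GCGNGGGCG on either strand. None of the 5 windows of Egr2 or the window of Egr4 held that Egr site. Such matches describe letters and say nothing of binding in these brains. Egr1 and Egr3 were matched to no window here.

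All values below are log2 expression levels on the authors' normalized scale, and levels are compared between arrays for the same probe set. The model, fitted in limma over 21996 probe sets, held diet and labelled batch, and a probe set was called where its Benjamini-Hochberg adjusted p was below 0.05. The tissue label was checked on markers. Snap25 and Syt1, of synaptic vesicle release, had mean levels of 11.68 and 11.37, and Slc17a7 and Tbr1, of cortical glutamatergic neurons, had 9.16 and 5.92 over the 24 arrays.

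Array quality was uneven in ways that touch these genes. The SD of an array's values was 1.58 in pellet batch 2 replicate 1 and between 1.81 and 2.06 in the other 23, and the median correlation of this array with the others was 0.811, the lowest of all. In the other 3 diets 18S ribosomal RNA gave a signal of 5.87 to 6.58 on arrays of batch 1 and of 4.88 to 5.15 on those of batch 2. Pellet arrays ran the other way by their labels, from 4.96 to 5.51 (batch 1) and from 5.92 to 6.42 (batch 2). Egr differences from the pellet diet are therefore also given by labelled batch where a probe set is named.

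Egr1 and Egr2 had their highest means on the chimpanzee diet, and the differences did not pass the test over all probe sets. Egr1, which is needed for lasting forms of synaptic plasticity and memory, lay between 9.99 and 11.40 on the chimpanzee diet with a median of 11.04. On fast food its lowest, median and highest arrays were at 9.90, 10.53 and 10.74, on the cafeteria diet at 9.56, 10.24 and 10.76, and on pellets at 9.05, 10.27 and 10.56. The chimpanzee diet had 4 arrays above every array of the other diets and 2 among them, so that the groups overlapped. The means were 10.80 ± 0.57, 10.43 ± 0.35, 10.22 ± 0.40 and 10.11 ± 0.55 (SD, n = 6) in this order, and no neighbours in it differed by more than the SD of the higher group.

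The human diets together lay below the chimpanzee diet in Egr1 by a log2 difference of −0.47 (SE 0.22, 95% interval −0.94 to −0.01). This is a 1.39-fold lower level, and it had an unadjusted p of 0.047 and an adjusted p of 1 in limma. Within the labelled batches the difference was −0.40 and −0.55. In batch 2 the 3 chimpanzee arrays, at 10.99, 11.08 and 11.14, were all above the 6 arrays of the human diets, the highest of which was at 10.76. In batch 1 the chimpanzee arrays lay at 9.99, 10.18 and 11.40, so that 1 array was high and the others were within the range of the human diets. How many of all probe sets keep such small groups apart in a batch was not counted.

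Egr2, best known for its role in the myelin of peripheral nerves and in the hindbrain, and induced by activity in neurons of the forebrain, was read by 2 probe sets that ran together. With 1427683_at the lowest, median and highest arrays were at 5.30, 5.87 and 6.74 with the chimpanzee food and at 4.76, 5.62 and 5.99 with fast food. They were at 4.51, 5.23 and 5.56 with pellets and at 4.31, 5.14 and 5.60 with cafeteria food. Here 2 chimpanzee arrays were above all arrays of the other diets, and the groups overlapped. The means were 5.89 ± 0.55, 5.52 ± 0.47, 5.18 ± 0.37 and 4.98 ± 0.49 (SD, n = 6), with each step between neighbours smaller than the SD of the higher group.

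The other Egr2 probe set, 1427682_a_at, gave the same top and a like spread. Chimpanzee arrays ran from 4.73 over a median of 5.12 to 6.13, and fast food arrays from 4.45 over 5.07 to 5.51. Cafeteria arrays ran from 3.81 over 4.58 to 5.03, and pellet arrays from 3.44 over 4.57 to 4.82, with all groups overlapping. Its means were 5.21 ± 0.53, 4.98 ± 0.42, 4.44 ± 0.46 and 4.41 ± 0.51 (SD, n = 6). Here the step from fast food to the cafeteria diet, 0.55 on the log2 scale with a 95% interval from −0.0032 to 1.10, was larger than the SD of either group (unadjusted p = 0.051, adjusted p = 1.00 in limma). The probe sets of Egr2 correlated over the 24 arrays at r = 0.87, and at 0.95 without pellet batch 2 replicate 1.

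**Figure D1:**
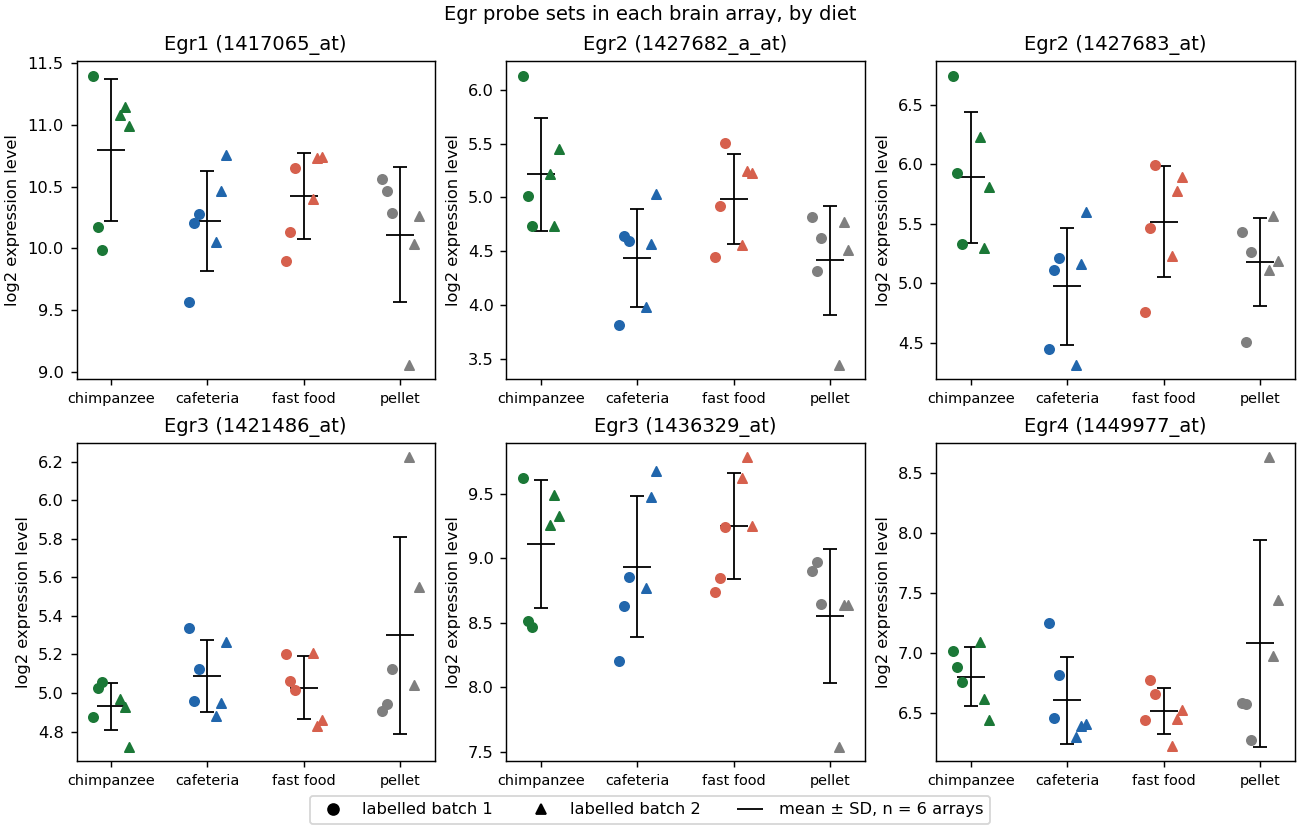
Log2 expression level (vertical axis) of each Egr probe set in each of the 24 brain arrays, by diet. Arrays of labelled batch 1 are circles, those of batch 2 are triangles, and each bar gives a mean ± SD of 6 arrays. In Egr1 the 3 chimpanzee arrays of batch 2 and 1 of batch 1 lie above all others, and 1 pellet array lies apart from the rest in Egr1, Egr3 and Egr4.

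The largest difference of the family among the 3 foods other than pellets was that of Egr2 between the cafeteria and chimpanzee diets. For 1427683_at it was −0.92 (SE 0.26, 95% interval −1.46 to −0.37), a 1.89-fold lower level on the cafeteria diet, with an unadjusted p of 0.0020 and an adjusted p of 1 in limma. Within the labelled batches it was −1.08 and −0.75. In batch 1 the 3 cafeteria arrays, at 4.45, 5.11 and 5.21, were below the 3 chimpanzee arrays, at 5.33, 5.93 and 6.74, and in batch 2 the groups overlapped. The share of all probe sets that separate 3 arrays from 3 was not counted either. For 1427682_a_at the same difference was −0.78 (SE 0.27, unadjusted p = 0.0078, adjusted p = 1 in limma) and for Egr1 it was −0.58 (SE 0.26, unadjusted p = 0.037, adjusted p = 1 in limma).

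On fast food the differences from the chimpanzee diet were smaller. They were −0.37 for Egr1 (95% interval −0.91 to 0.17), −0.37 for Egr2 by 1427683_at (−0.91 to 0.17) and −0.23 by 1427682_a_at (−0.78 to 0.32), with unadjusted p-values of 0.17 to 0.40. Without chimpanzee batch 1 replicate 1 they were −0.22, −0.18 and −0.04. Between the human diets, Egr2 by 1427683_at was 0.54 higher on fast food than on the cafeteria diet (SE 0.26, unadjusted p = 0.049, adjusted p = 1.00 in limma). In Egr1 this difference was 0.21, with a 95% interval from −0.33 to 0.74.

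Counted over the 6 Egr probe sets, none was called in a comparison of these 3 diets, where limma called 0% of all probe sets in each pair and for the human diets together. At an unadjusted p under 0.05, 3 of 6 were lower on the human diets than on the chimpanzee diet, where 1.9% of all probe sets had such a p in either direction. The same 3 probe sets, of Egr1 and Egr2, were lower on the cafeteria diet than on the chimpanzee diet, against 1.46% of all probe sets. Between fast food and the chimpanzee diet the count was 0 of 6 against 1.84%, and between fast food and the cafeteria diet it was 1 of 6 against 0.773%. These comparisons share their arrays, and the probe sets of Egr2 share their transcript, so that the counts are not independent of each other. The Egr genes were also chosen with earlier results of these data known, so that the counts are a description and no test of the family. In the test of all 4 diets, 0 of 6 were called, where 0.0455% of all probe sets were, and both Egr2 probe sets had an unadjusted p under 0.05 (0.012 for 1427682_a_at and 0.011 for 1427683_at, adjusted p = 0.719 in limma), against 5.41% of all probe sets.

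Egr3 and Egr4 did not follow this order. Egr3, a factor needed for muscle spindles and induced with Egr1 by synaptic activity, was at 8.46, 9.29 and 9.62 (lowest, median and highest) on the chimpanzee diet by 1436329_at. It was at 8.74, 9.25 and 9.78 on fast food, 8.20, 8.81 and 9.68 on the cafeteria diet, and 7.54, 8.64 and 8.97 on pellets. The arrays of all diets overlapped, with means in falling order of 9.25 ± 0.41 (fast food), 9.11 ± 0.50 (chimpanzee), 8.93 ± 0.55 (cafeteria) and 8.56 ± 0.52 (pellets; SD, n = 6), no neighbours differing by more than their SD. Human diets minus chimpanzee, the difference was −0.02, with a 95% interval from −0.48 to 0.44.

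The other Egr3 probe set, 1421486_at, gave another order of diets, with the highest mean on pellets, at 5.30 ± 0.51, and the lowest on the chimpanzee diet, at 4.93 ± 0.12 (SD, n = 6). Chimpanzee arrays ran from 4.72 over a median of 4.95 to 5.06, and fast food arrays from 4.83 over 5.04 to 5.21. Cafeteria arrays ran from 4.88 over 5.04 to 5.34, and pellet arrays from 4.91 over 5.08 to 6.22. Apart from 1 pellet array, its values stayed within a narrow range, and the human diets differed from the chimpanzee diet by 0.13 (95% interval −0.17 to 0.42). The probe sets of Egr3 correlated at r = −0.65 over 24 arrays and at −0.16 over the 18 arrays of the other diets with each batch centred. They disagree, so that a direction for Egr3 depends on the probe set read.

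Egr4, a member induced by activity in neurons and needed for fertility in male mice, lay at 6.45, 6.82 and 7.09 on the chimpanzee diet and at 6.23, 6.49 and 6.78 on fast food. It lay at 6.31, 6.44 and 7.25 on the cafeteria diet and at 6.28, 6.78 and 8.63 on pellets. Pellets had the highest mean, 7.08 ± 0.86, before the chimpanzee diet with 6.80 ± 0.25, the cafeteria diet with 6.61 ± 0.36 and fast food with 6.52 ± 0.19 (SD, n = 6). The groups overlapped, and no neighbours in this order differed by more than the SD of the higher group. The human diets differed from the chimpanzee diet by −0.24 (95% interval −0.73 to 0.24).

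**Figure D2:**
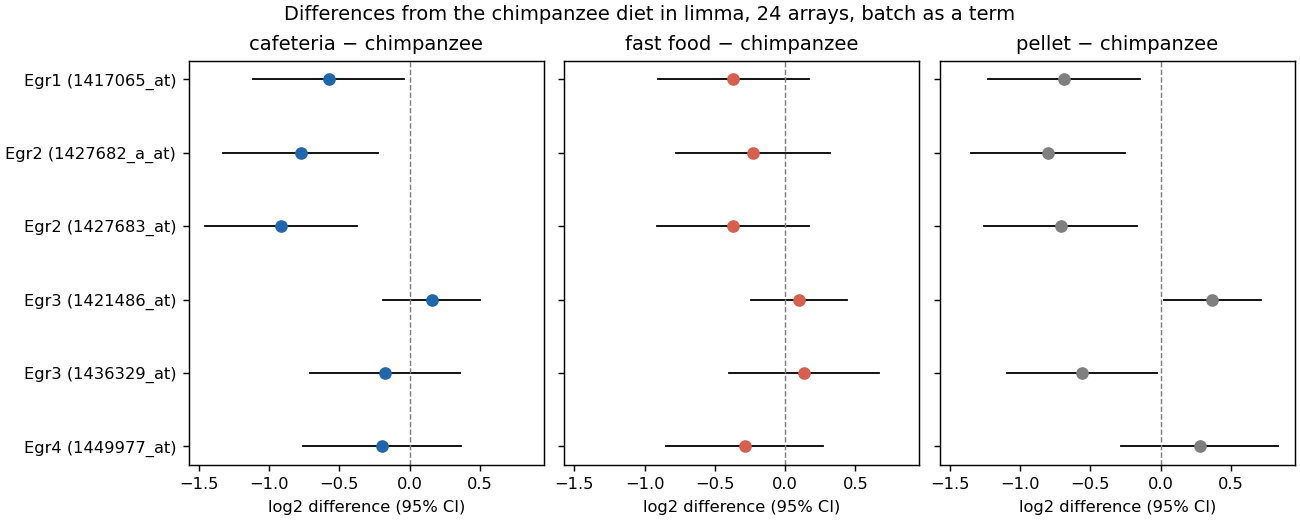
Log2 differences of each Egr probe set from the chimpanzee diet (horizontal axis) for the cafeteria, fast food and pellet diets, as points with 95% intervals from limma over 24 arrays with batch as a term. Intervals of Egr1 and Egr2 lie below 0 on the cafeteria and pellet diets and reach 0 on fast food, and none of the differences was called over all probe sets.

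Mean levels of markers of brain regions also differed between the diets, and their part in the Egr differences was not tested. All 7 measured markers of thalamus were higher on the human diets than on the chimpanzee diet, by a median log2 difference of 0.52 where the median of all probe sets was 0.01, and 6 of 7 markers of cortex were lower, by a median of −0.17. The largest of these differences were 0.92 (SE 0.33) in Shox2, a transcription factor of thalamic neurons, and −0.28 in Tbr1. None of them was called in limma. At an unadjusted p under 0.05 in limma, 5 of the 7 thalamus markers were higher and 1 of the 7 cortex markers was lower. Of all probe sets 1.9% had such a p in either direction, and 55.5% were higher on the human diets. The mean level of the thalamus markers ranged from 5.13 to 6.30 in chimpanzee arrays, 6.02 to 6.78 in cafeteria arrays, 6.10 to 6.88 in fast food arrays and 5.19 to 6.61 in pellet arrays. Chimpanzee batch 1 replicate 1 and batch 2 replicate 2, at 5.13 and 5.23, lay below every array of the human diets, and their cortex markers, at 8.58 and 8.56, were the highest of all arrays. The same arrays had the highest levels of Egr1, at 11.40 and 11.14. In Egr2 by 1427683_at they lay at 6.74 and 5.30, the highest and the lowest of the chimpanzee arrays.

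Without these 2 chimpanzee arrays, a choice made after the markers were seen, the difference of the human diets in Egr1 was −0.24 (unadjusted p = 0.355 in limma). In Egr2 it was −0.58 by 1427683_at (unadjusted p = 0.022) and −0.39 by 1427682_a_at (unadjusted p = 0.125). Between the cafeteria and chimpanzee diets Egr2 kept −0.85 and −0.66 by the same probe sets (unadjusted p = 0.0038 and 0.024), and Egr1 had −0.34 (unadjusted p = 0.238). In Egr3 by 1436329_at the difference of the human diets turned to 0.20. Leaving out chimpanzee batch 1 replicate 1 alone gave −0.33 in Egr1, and −0.46 and −0.32 in Egr2 by 1427683_at and 1427682_a_at. Correlations were taken over the 18 arrays of the 3 diets with each batch centred. Egr1 correlated with the mean level of the cortex markers at r = 0.76 and of the thalamus markers at −0.55. Egr2 by 1427683_at did so at 0.45 and −0.24, and by 1427682_a_at at 0.54 and −0.23. Egr1 also ran with markers of neurons (0.77), hippocampus (0.61) and microglia (0.61), and against those of cerebellum (−0.40) and pituitary (−0.31). For Egr2 by 1427683_at and 1427682_a_at these were 0.57 and 0.67 (neurons), 0.38 and 0.55 (hippocampus) and 0.51 and 0.65 (microglia). With cerebellum they were −0.49 for both, and with pituitary −0.37 and −0.39.

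The mean level of Egr1 and Egr3 also ran with the spread of each array's values, a measure of the whole array. Over 24 arrays Egr1 correlated with the SD of the array at r = 0.82 and Egr3 by 1436329_at at 0.90, and without pellet batch 2 replicate 1 at 0.73 and 0.85. Egr2 did so less, at 0.56 by 1427682_a_at and 0.25 by 1427683_at, and Egr4 and Egr3 by 1421486_at ran against it, at −0.77 and −0.78. Correlations of this kind were common, since 39.5% of all probe sets had a larger one, of either sign, than Egr1, and 21.6% a larger one than Egr3 by 1436329_at. With the SD of the array as a covariate, the human diets differed from the chimpanzee diet by −0.50 in Egr1 (unadjusted p = 0.000125, adjusted p = 0.090 in limma) and by −0.65 in Egr2 by 1427683_at (unadjusted p = 0.0060, adjusted p = 0.45), so that neither was called. Over the settings tried, the adjusted p for Egr1 in this comparison was never below 0.090.

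**Figure D3:**
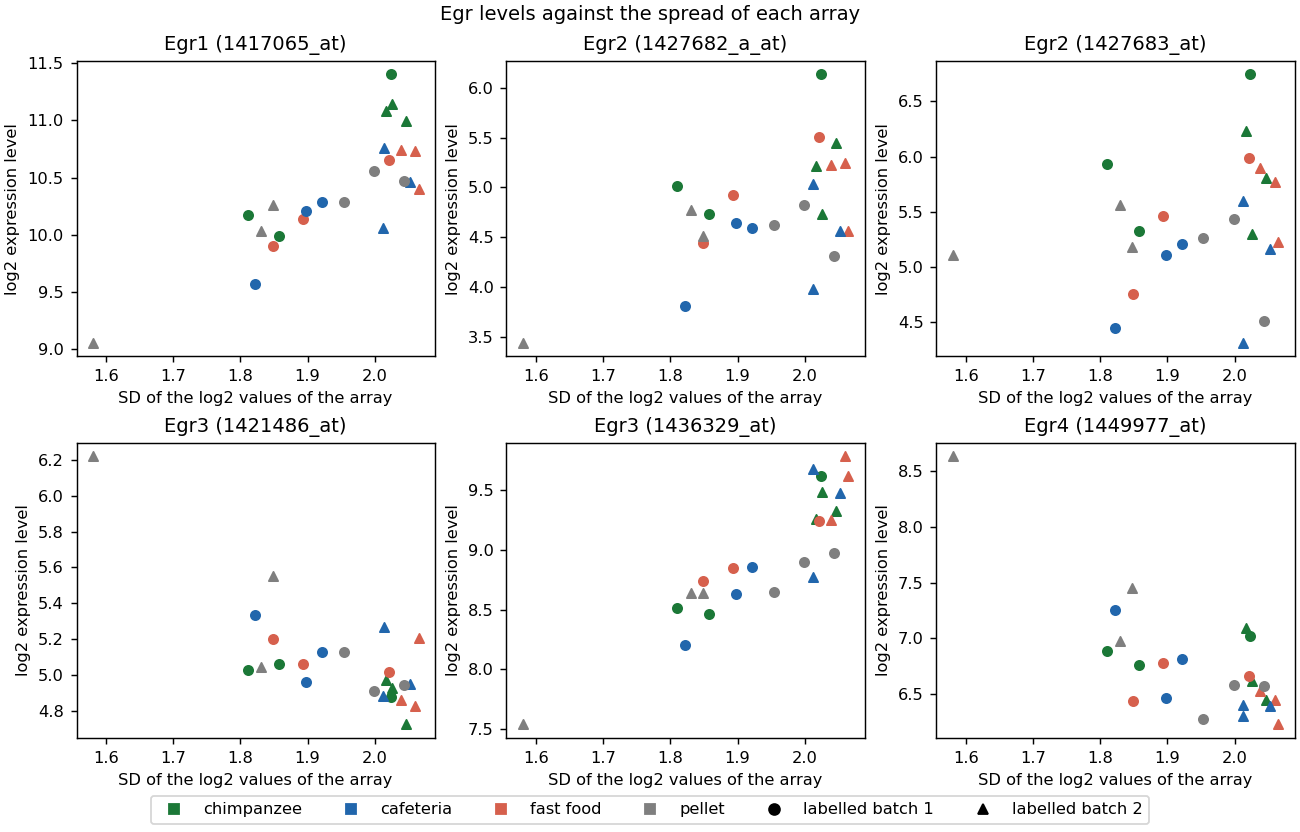
Log2 expression level of each Egr probe set (vertical axis) against the SD of the log2 values of its array (horizontal axis), coloured by diet, where arrays of labelled batch 1 are circles and those of batch 2 triangles. Egr1 and Egr3 by 1436329_at climb with the spread, Egr4 and Egr3 by 1421486_at descend, and 1 pellet array, with an SD of 1.58, lies at the far left of every panel.

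A difference within an array is free of shifts that move both probe sets alike. The log2 difference of Egr1 minus Egr3 (1436329_at) was highest with the chimpanzee diet, at 1.69 ± 0.11, before pellets at 1.56 ± 0.10, the cafeteria diet at 1.29 ± 0.22 and fast food at 1.18 ± 0.27 (SD, n = 6). It ranged from 1.52 to 1.82 on the chimpanzee diet and from 1.40 to 1.66 on pellets, against 0.99 to 1.57 and 0.78 to 1.49 on the human diets. The fast food arrays lay below all chimpanzee arrays, and the cafeteria arrays overlapped them by 1 array, which had the highest value of its group. Of 3 such differences computed, the other 2 overlapped between every pair of diets. Egr1 minus Egr2 (1427683_at) was 4.91 ± 0.55 (chimpanzee), 4.91 ± 0.22 (fast food), 4.93 ± 0.68 (pellets) and 5.25 ± 0.25 (cafeteria, each SD, n = 6), and Egr2 minus Egr3 was −3.22 ± 0.56, −3.73 ± 0.46, −3.38 ± 0.66 and −3.96 ± 0.38 in the same order. The measure shown was chosen after the values were seen, so that no test was made. It says how unequally the 2 genes differed, not which of them differed or which is the more abundant. Only the Egr3 probe set of the higher mean level was used, and the other Egr3 probe set disagreed with it over the arrays. How often pairs of other probe sets keep these diets apart was not counted.

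**Figure D4:**
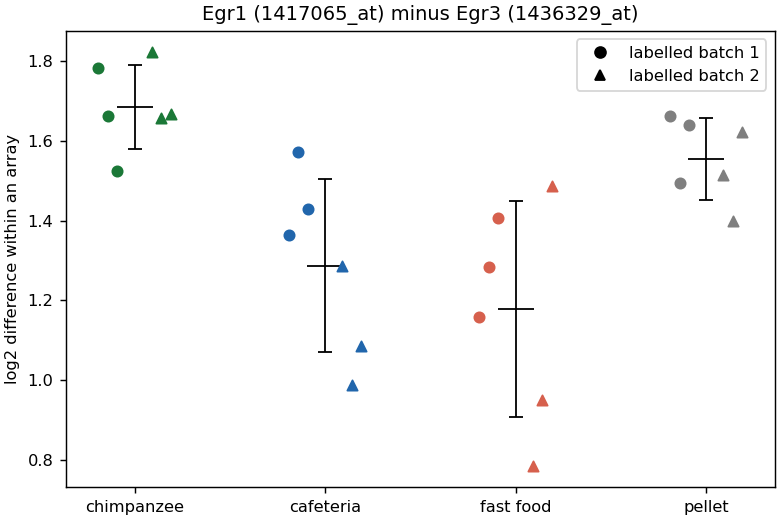
Log2 difference of Egr1 (1417065_at) minus Egr3 (1436329_at) within each array (vertical axis) by diet. Arrays of labelled batch 1 are circles, those of batch 2 are triangles, and each bar gives a mean ± SD of 6 arrays. The chimpanzee arrays lie between 1.52 and 1.82, and the fast food arrays between 0.78 and 1.49.

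Against the chimpanzee diet, the pellet diet had lower means of Egr1, of both Egr2 probe sets and of Egr3 by 1436329_at. The log2 differences were −0.69 in Egr1 (SE 0.26), −0.71 in Egr2 by 1427683_at (SE 0.26), −0.80 by 1427682_a_at (SE 0.27) and −0.56 in Egr3 (SE 0.26). Egr3 by 1421486_at was higher by 0.37 (SE 0.17). These 5 probe sets had unadjusted p-values between 0.0062 and 0.042, where 9.54% of all probe sets had one under 0.05, and none was called (adjusted p = 0.459 in limma), where 0.00455% were. Egr4 differed by 0.28 (adjusted p = 0.54).

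In labelled batches 1 and 2 taken apart, these pellet differences were unlike each other. They were −0.08 and −1.29 in Egr1, −0.03 and −1.09 in Egr3 by 1436329_at, and −0.41 and 0.96 in Egr4. In Egr3 by 1421486_at they were 0.0040 and 0.73. Egr2 was the exception, with −0.93 and −0.49 by 1427683_at and −0.71 and −0.89 by 1427682_a_at. In labelled batch 2 the pellet arrays lay at 9.05, 10.03 and 10.26 in Egr1, at 7.54, 8.64 and 8.64 in Egr3 by 1436329_at, and at 6.98, 7.45 and 8.63 in Egr4, with the array of lowest Egr1 and Egr3 and highest Egr4 being the one with the narrow spread. Without that array the difference was −0.45 in Egr1, −0.31 and 0.18 in Egr3 by 1436329_at and 1421486_at, −0.04 in Egr4, and −0.69 and −0.60 in Egr2 by 1427683_at and 1427682_a_at.

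Set against the other foods, 0 of 6 Egr probe sets were called between pellets and the cafeteria diet, as were 0% of all probe sets, and 0 of 6 had an unadjusted p under 0.05, against 5.47%. Between pellets and fast food 0 of 6 were called, against 0.0409% of all probe sets. At an unadjusted p under 0.05 there were 3 of 6, where 21.5% of all probe sets had such a p. They were Egr3 by 1436329_at with −0.69, Egr2 by 1427682_a_at with −0.57 and Egr4 with 0.57 (adjusted p = 0.22 to 0.23 in limma). In labelled batches 1 and 2 they were −0.10 and −1.28 in Egr3, −0.37 and −0.77 in Egr2, and −0.15 and 1.28 in Egr4, so that Egr4 changed its sign. Without pellet batch 2 replicate 1 they were −0.45, −0.37 and 0.25. Against the cafeteria diet the sign also differed between labelled batches 1 and 2, with 0.42 and −0.64 in Egr1, 0.28 and −1.04 in Egr3 by 1436329_at and −0.37 and 1.31 in Egr4. So it did in Egr2 by 1427682_a_at, with 0.24 and −0.29, and in Egr3 by 1421486_at, with −0.15 and 0.57. Egr2 by 1427683_at kept its sign, with 0.15 and 0.26.

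Of the factors tested, labelled batch and its interaction with diet gave the called Egr differences. Over the 18 arrays of the other 3 diets, Egr3 by 1436329_at was higher in labelled batch 2 by 0.61 (SE 0.15, adjusted p = 0.0015 in limma) and Egr1 by 0.45 (SE 0.16, adjusted p = 0.019). Egr4 was lower there by a log2 difference of −0.29 (SE 0.10, adjusted p = 0.020). The probe sets of Egr2 differed by 0.04 and 0.02 and were not called. These 3 calls of 6 stand beside 51.5% of all probe sets called between the batches. The difference between batches itself differed among the 4 diets in Egr4 (adjusted p = 0.0054 in limma) and in Egr3 by 1436329_at (adjusted p = 0.044), 2 calls of 6, where 51.5% of all probe sets were called too. With the SD of each array as a covariate the batch difference was −0.30 in Egr1 and −0.07 in Egr3 by 1436329_at, neither called, while Egr2 by 1427682_a_at was called with −0.81 (adjusted p = 0.023 in limma) and 0 of 6 were called for the interaction. Over all 21996 probe sets this covariate left 2745 calls between the batches, from 11338, and 297 for the interaction, from 11318. With the 18S signal as a covariate the batch difference was 1.58 in Egr1 and 1.47 in Egr3 by 1436329_at, both called, and after quantile normalizing again it was −0.052 and 0.23, neither called.

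Over the arrays, Egr1 and Egr2 moved with other immediate early genes, and Egr4 did so little. Likeness was measured as Pearson's r over the 18 arrays not from pellet mice, each batch centred, among 11641 genes. All values come from the same arrays and share the spread described above, so that r is a description. The genes most like Egr1 were Dusp6 at 0.97, a phosphatase that switches off ERK and is itself induced by ERK, Dnajb5, Dlg2, Rasgrp1 and Dlg3, at 0.94 to 0.91. Rasgrp1 activates Ras upstream of ERK, and Dlg2 and Dlg3 are scaffolds of the postsynaptic density.

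Egr2 by 1427683_at was most like Nr4a1 at r = 0.95, an orphan nuclear receptor and immediate early gene, Tiparp at 0.93, Fos at 0.92, a subunit of the AP-1 factor, Arc at 0.91, which acts in the removal of AMPA receptors at synapses, and Zfyve26 at 0.90. By 1427682_a_at it was most like Nr4a1, Fos, Zfyve26, Arc and Dusp6, at 0.93 to 0.91. Egr3 by 1436329_at was most like Socs5, Fam155a, Tlk1, Astn1 and Lgalsl, at 0.96 to 0.95. For Egr3 by 1421486_at the leading genes were Plpp4, Ppfia4, Gm9195, Usp28 and Prm2 at 0.84 to 0.82, and for Egr4 Ccr10, Trib1, A530088E08Rik, Phf21b and Slc31a2 at 0.83 to 0.75. Within the family, Egr1 correlated with Egr2 at 0.89 and 0.86 and with Egr3 by 1436329_at at 0.75, while Egr4 correlated with these probe sets at −0.10 to 0.34.

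Of 28 other immediate early genes 25 were measured. On the human diets 18 of them were lower and 7 higher than on the chimpanzee diet, with a median log2 difference of −0.16 against 0.01 over all probe sets. Of all probe sets 55.5% were higher. None of the list was called in limma, and 7 had an unadjusted p under 0.05, all lower, where 1.9% of all probe sets had such a p in either direction. Like the other lists, this 1 was chosen with earlier results of these data known, so that the count is a description. Klf10, a transcription factor induced by TGF-beta, had the largest difference, −0.72 (SE 0.23). Per1, a clock gene that CREB also induces and which is named here after its values were seen, had the smallest p, with −0.67 (SE 0.13, adjusted p = 0.234 in limma). On the cafeteria diet alone 24 of 25 were lower than on the chimpanzee diet by a median of −0.27, and on fast food alone 14 of 25 by a median of −0.06, where 45.9% and 61.7% of all probe sets were higher. Between fast food and the cafeteria diet 24 of 25 were higher on fast food, by a median of 0.22 against 0.05 over all probe sets, 68.7% of which were higher. The mean level of this list correlated with Egr1 at r = 0.93 and with Egr2 at 0.94 and 0.96 over the 18 arrays, with Egr4 at 0.22, and with Egr3 at 0.75 by 1436329_at and −0.54 by 1421486_at. Differences of the list genes, here and below, come from the same arrays as those of Egr. They were not recomputed without the 2 chimpanzee arrays low in thalamus markers.

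Both corepressors were measured, and neither was called. Nab2, itself a target of Egr1, had mean levels of 7.32 (chimpanzee), 6.89 (fast food), 6.82 (pellets) and 6.76 (cafeteria), a log2 difference of the human diets of −0.50 (SE 0.13, unadjusted p = 0.000735, adjusted p = 0.93 in limma). Nab1 differed by −0.02 (SE 0.20). All 4 ERK phosphatases, Dusp1, Dusp4, Dusp5 and Dusp6, had lower means on the human diets, by a median of −0.33 and with none called. The largest difference was that of Dusp4, at −0.55 (SE 0.14, adjusted p = 0.93 in limma), and 2 of the 4 had an unadjusted p under 0.05.

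Factors that act before Egr transcription, such as Srf, Elk1, Creb1 and the Mef2 genes, differed little between the human and chimpanzee diets. Of 15 measured genes 7 were lower and 8 higher by a median of 0.01, none had an unadjusted p under 0.05, and the largest difference was −0.14 in Mrtfa, a coactivator of Srf. Among 11 genes reported elsewhere as Egr targets 6 were lower and 5 higher by a median of −0.01. Arc, which the list of immediate early genes also holds, had the largest difference, −0.52 (SE 0.26, unadjusted p = 0.058). This list of targets also holds Nab2, given above. It was the 1 gene of the list with an unadjusted p under 0.05 in limma, where 1.9% of all probe sets had one. None of these genes was called in limma. Of the zinc finger factors Sp1, Sp3 and Sp4, which also bind GC-rich sites, 2 were higher and 1 lower, by at most 0.15 in Sp1, and none was called.

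Against pellets the same lists were read beside a shift of all probe sets, whose median log2 difference from the chimpanzee diet was −0.14. Only 29.0% of all probe sets were higher on pellets than on the chimpanzee diet. Of the other immediate early genes 20 of 25 were lower on pellets by a median of −0.41, of the ERK phosphatases 4 of 4 by −0.56, and of the factors before Egr transcription 15 of 15 by −0.34. None of these genes was called in limma. Neuron markers were lower on pellets in 7 of 7 by a median of −0.29. The lists were not split by labelled batch, in which the pellet differences of several Egr probe sets were unlike.

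Of the other marker lists, oligodendrocyte markers were higher on the human diets than on the chimpanzee diet in 8 of 8, by a median of 0.23. Cerebellum markers were so in 5 of 5, by a median of 0.75, where 55.5% of all probe sets were higher. At an unadjusted p under 0.05 in limma there were 2 of 8 and 0 of 5. Neuron markers were lower in 5 of 7, by a median of −0.04. The medians of the hippocampus, striatum, astrocyte, microglia, endothelium, peripheral myelin, choroid plexus and pituitary lists lay between −0.09 and 0.28, and blood was read by 1 gene, with −0.31. None of these markers was called in limma.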

How the data were processed

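Total RNA of 24 mice was hybridised as biotinylated cRNA to Affymetrix whole-genome mouse arrays, 1 array per mouse. The authors deposited log2 expression levels made with rma of the affy package, which includes quantile normalization. Versions are not given in the sources used here, and detection p-values were not used. The methods left out 1 pellet array for degraded RNA without naming it in the sources used here, so that all 6 were kept.

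Of 45101 probe sets, 64 controls and 932 with several genes were set aside. The 21996 with a mean level of at least 4.07, the median of all, were fitted in limma 3.58.1 (R 4.3.3) with diet and labelled batch as terms, and p-values were adjusted by Benjamini-Hochberg over all of them. They cover 11645 genes. Precision is limited by how many arrays there are, and intervals are at 95%. The scripts were tested on simulated data, and figures were drawn with Python 3.11.15 and matplotlib 3.10.9.

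The Egr genes and the 20 gene lists were chosen with earlier results of these data known. The genes named are every Egr probe set, both Nab genes, any list gene called, the gene of a list with the largest difference between the human and chimpanzee diets, and the 5 genes most like each Egr probe set. Groups follow the labels. Alternatives were the filter, 1 probe set per gene, centring or quantile normalizing again, array weights, other models of the spread, an 18S covariate, other terms, a replicate block, each batch alone, exchanged pellet labels and each array left out. The array SD covariate and the removal of chimpanzee arrays low in thalamus markers were chosen after seeing the data. Promoter windows came from RefSeq, GRCm38.p6.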

Additional observations from a re-analysis of the deposited data

Results flagged for a closer look

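In the pellet group, batch 2 replicate 1 lay apart from the other 5 arrays in 3 of the 24 sets of 6 values examined. It had a log2 level of 9.05 in Egr1, 3.44 in Egr2 by 1427682_a_at and 7.54 in Egr3 by 1436329_at, each the lowest of the group. The same array had the narrowest spread of all, with an SD of 1.58.

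The difference between the labelled batches differed among the diets in Egr3 by 1436329_at (adjusted p = 0.044 for the interaction in limma) and in Egr4 (adjusted p = 0.0054). In Egr4 the means of labelled batches 1 and 2 were 6.48 and 7.68 on pellets, against 6.89 and 6.72 on the chimpanzee diet. With the labels of the pellet batches exchanged, 0 of the 6 Egr probe sets were called, and over all 21996 probe sets the calls went from 11318 to 0. The 18S signal of the pellet arrays ran against that of the other diets by labelled batch. With that signal as a covariate, 0 Egr probe sets and 0 of all probe sets were called for the interaction.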

How the results depend on the processing

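Of 2284 recomputed Egr values 62 reversed their direction. The 2284 include ranges for the 4 diets and for the interaction, which have no sign and could not reverse. No Egr probe set was called among the chimpanzee, cafeteria and fast food diets under any alternative. Against main counts of 0, labelled batch 2 alone gave 3 Egr calls for the 4 diets, 4 for pellets against chimpanzee, 2 against cafeteria and 4 against fast food, the last being 1 with exchanged pellet labels and 2 with the interaction model, where 3534 and 3908 of all probe sets were called, against 9. The 3 calls between batches became 1 after quantile normalizing again and 1 with the array SD covariate. The 2 interaction calls became 1 without the filter, 1 after quantile normalizing again, 4 with array weights, 1 without moderation, and 0 with the 18S covariate, the array SD covariate or exchanged pellet labels, and ranged from 1 to 3 (without chimpanzee batch 1 replicate 1) with single arrays left out. The causes were not tested.

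Reversed log2 differences were as follows. For Egr3 by 1436329_at, human diets minus chimpanzee was 0.035 with array weights, 0.071 in batch 2 and 0.20 without the chimpanzee arrays low in thalamus markers, where cafeteria minus chimpanzee was 0.044. Fast food minus cafeteria was 0.012 in Egr3 by 1421486_at and 0.024 in Egr4 with the array SD covariate, and 0.033 in Egr4 in batch 2. Pellet minus chimpanzee in Egr4 was −0.15 with array weights, −0.018 with the array SD covariate and −0.41 in batch 1. Pellet minus cafeteria in Egr1 was 0.075 after quantile normalizing again, 0.0087 with array weights, 0.17 with the array SD covariate and 0.42 in batch 1. In Egr2 by 1427682_a_at it was 0.18, 0.17 and 0.24 under the last 3 of these, and in Egr3 by 1421486_at −0.015 with array weights and −0.15 in batch 1. In batch 1 it was also 0.28 in Egr3 by 1436329_at and −0.37 in Egr4. Pellet minus fast food in Egr1 was 0.086 with the array SD covariate and 0.21 in batch 1, where Egr3 by 1421486_at had −0.10 and Egr4 −0.15. Batch 2 minus batch 1 after quantile normalizing again was −0.052 in Egr1 and −0.038 in Egr2 by 1427683_at. With the array SD covariate it was −0.30 in Egr1, −0.81 and −0.73 in Egr2 by 1427682_a_at and 1427683_at, and 0.036 and −0.065 in Egr3 by 1421486_at and 1436329_at.

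With single arrays left out, ranges that crossed 0 were −0.23 to 0.13 for Egr1 and −0.16 to 0.17 for Egr2 by 1427682_a_at (pellet minus cafeteria), −0.065 to 0.16 and −0.070 to 0.16 for Egr2 by 1427682_a_at and 1427683_at (batch), −0.11 to 0.0018 for Egr3 by 1421486_at and −0.16 to 0.052 for Egr4 (fast food minus cafeteria), −0.12 to 0.12 for Egr3 by 1436329_at (human diets minus chimpanzee), and −0.040 to 0.44 for Egr4 (pellet minus chimpanzee). Over all probe sets, calls ranged from 1 with the replicate block to 9593 in batch 2 alone for the 4 diets (10 in the main setting), 0 to 11449, 11044 and 12984 for pellets against chimpanzee, cafeteria and fast food, the highest in batch 2 alone, 0 to 30 for the human diets against chimpanzee, 2745 to 14519 for the batches and 0 to 18588 for the interaction. Same-numbered arrays of the diets correlated in their deviations at a mean r of −0.11 to 0.17, which cannot tell whether they share a litter. The study spread littermates evenly over the groups, and the labels do not say which arrays they are. The replicate block gave 0 Egr calls in each diet comparison.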
